A study of Canis lupus familiaris with 6 samples.

Results

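Endothelial cells line the vessels of the retina, and here they were sought as single-cell barcodes that carry transcripts of 6 vessel genes: CLDN5, PECAM1, VWF, CDH5, FLT1 and KDR. A barcode was a member if it had at least 300 genes, at least 3 UMIs (counted transcript molecules) of these 6 genes from at least 2 of them, less than 0.3% of its UMIs from the glial genes RLBP1, GLUL and SLC1A3, and no UMI of the microglial genes C1QA, C1QB and C1QC. Of 82153 barcodes with at least 300 genes, 2411 (2.93%) were members. Members were thus chosen by their measured UMI counts of these 12 genes, whose levels are described below and not tested.

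The tissue was retina of immunosuppressed dogs whose retinas were normal, collected on day 3 after pieces of human retinal organoids were put beneath it. These organoids derived from WA09 cells, a human embryonic stem cell line in established use, here with a CRX-tdTomato reporter. Each of 3 experiments (LG5, RC726 and RC724) paired a 5 mm punch of the retina above the graft with a control, a second 5 mm punch from elsewhere in that retina without graft. This gave 3 libraries per group, and the immunosuppression is common to both groups.

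Retinal endothelium forms the inner blood-retina barrier: neighbouring cells are sealed by tight junctions, leakage through vesicles is kept low, and nutrients enter by dedicated carriers. Norrin and Wnt signals from the surrounding retina maintain this state, and pericytes wrap the capillaries from outside. In inflamed tissue, the endothelium of small veins displays adhesion molecules and chemokines that slow and capture leukocytes from the blood.

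The 6 libraries held 8778 to 23908 barcodes and 34768162 to 60755006 UMIs, with a library median of 1259 to 2684 UMIs per barcode. Any 2 libraries had 17 to 102 barcode sequences in common, and 0 of these were members. Members had more UMIs than most barcodes: their median was 4156 in the LG5 control and 4438.5 over the graft, 5210 and 15248 in RC726, and 23267 and 25075 in RC724, against 1061 to 2265 in rods.

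The labelled identity held for a small fraction of the members. Of the 2411, 2014 (83.5%) carried FLT1 and KDR with none of CLDN5, PECAM1, VWF and CDH5, and 244 carried 1 of these 4 genes. Only 153 (6.35%) carried at least 2 of the 4, which are respectively a tight junction claudin, a platelet endothelial adhesion molecule, a clotting glycoprotein stored in endothelium, and the endothelial cadherin. These 153 are called vessel-marker-positive barcodes here, a subset drawn after the values were seen and therefore given without a test of its own. The LG5 control held 16 of them and the LG5 punch over the graft 33, RC726 held 8 and 27, and RC724 held 30 and 39.

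**Figure D1:**
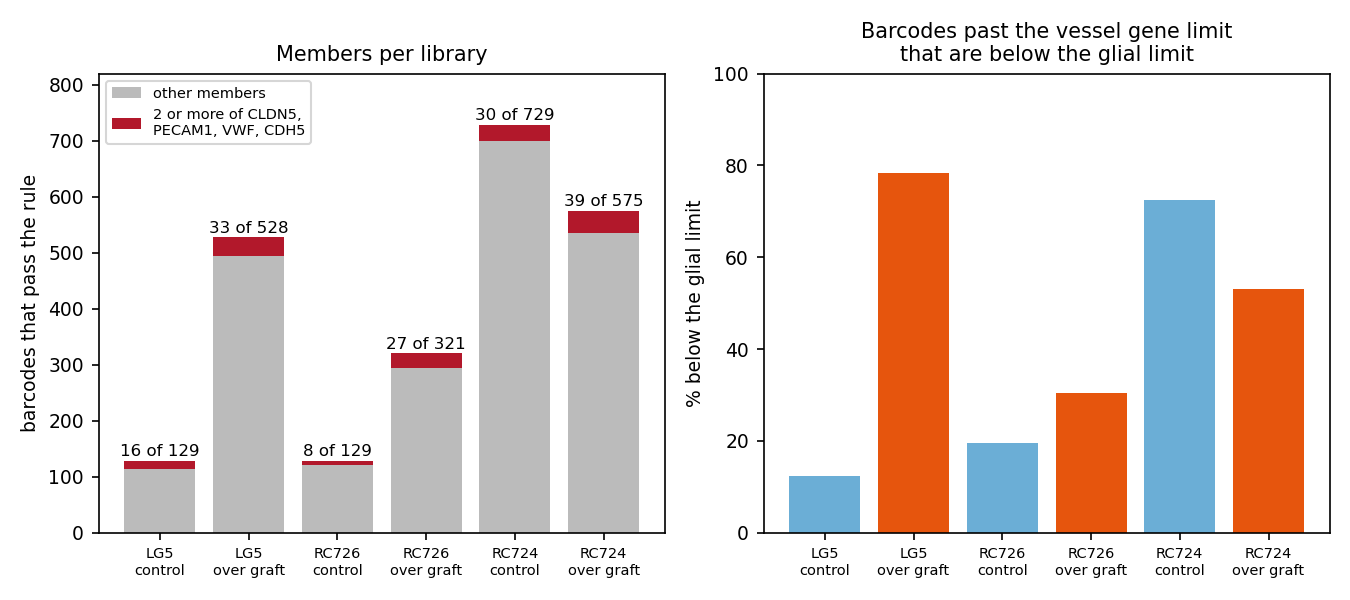
Members per library (left, number of barcodes, divided into the 153 vessel-marker-positive barcodes and the others) and the percentage of barcodes past the vessel gene limit that also fell below the glial limit (right). The vessel-marker-positive barcodes are the small portion of each bar, 8 to 39 per library, and the percentage below the glial limit ran from 12.5% in the LG5 control to 78.3% in LG5 over the graft.

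Genes that the rule did not use separated the 153 from the other 2258 members. ERG, a transcription factor of the endothelial lineage, stood at 141 to 663 CPM (counts scaled to a common total, from the UMIs summed per library) in the 6 sums of vessel-marker-positive barcodes, at 0 to 0.9 CPM in the other members and at 0 to 0.9 CPM in rods. EMCN, a sialomucin of venous and capillary endothelium, stood at 238 to 1711 CPM against at most 0.9 CPM in the other members. The SoxF factor SOX18 measured 463 to 843 CPM against at most 0.4 CPM. KLF2, the flow-induced factor of quiescent endothelium, measured 1540 to 2927 CPM against 0 to 13 CPM. TIE1, an orphan receptor of the angiopoietin system, ranged from 46.1 to 96.9 CPM against at most 0.9 CPM. A UMI of ERG was found in 62.5 to 96.3% of the vessel-marker-positive barcodes of a library and in at most 0.2% of rods, at the different depths given above. For each of these genes the 2 ranges did not overlap.

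The other members carried genes of Müller glia, the radial support cells of the retina. CLU, a secreted chaperone abundant in these cells, stood at 3566 to 9946 CPM in the other members, 2029 to 3428 CPM in the 153 and 98.7 to 2723 CPM in rods. AQP4, the glial water channel, stood at 215 to 326 CPM against 0 to 42.6 CPM in the 153. DKK3 measured 251 to 584 CPM against 0 to 114 CPM. PDGFRA, which the marker lists used here place with fibroblasts and not with Müller glia, measured 253 to 397 CPM against 0 to 41 CPM. FLT1 at 424 to 754 CPM and KDR at 215 to 339 CPM placed these barcodes inside the rule, while CLDN5 was at most 3 CPM. They are therefore called the other members and given no cell type name.

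**Figure D2:**
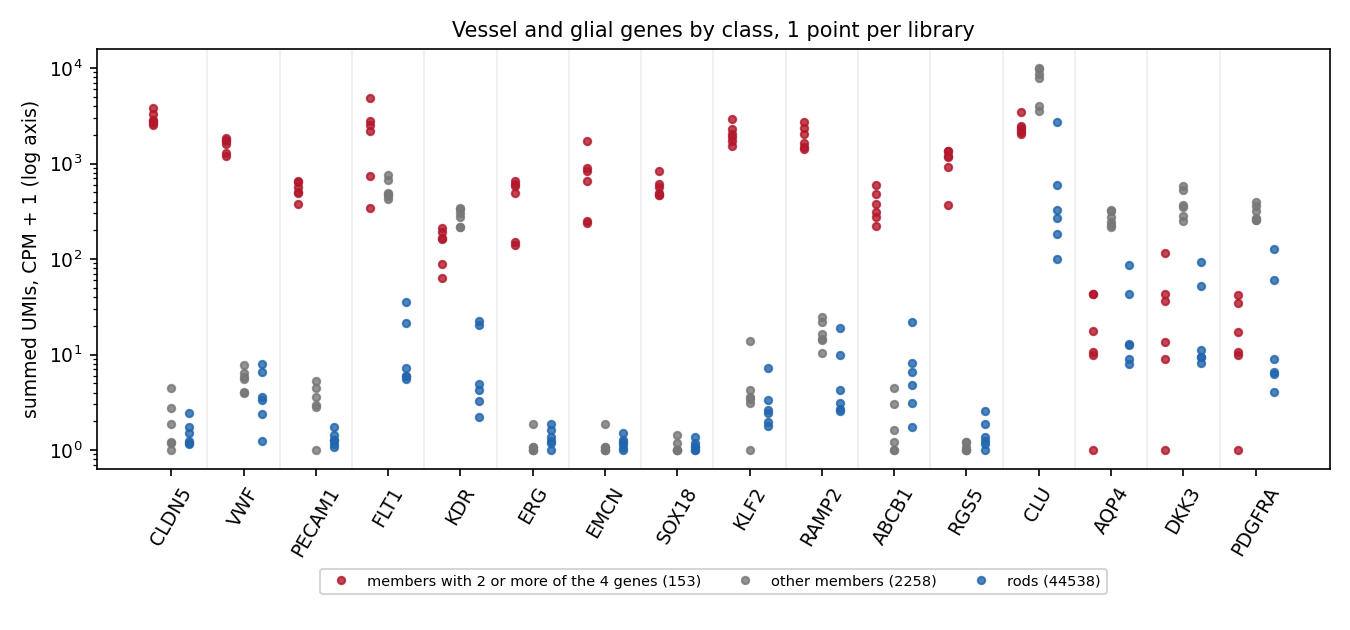
Level of vessel genes, the pericyte gene RGS5, glial genes and PDGFRA (of the fibroblast marker list) in the summed UMIs of each library (1 point per library, CPM + 1 on a log axis), for the 153 vessel-marker-positive barcodes, the other 2258 members and 44538 rods. ERG, EMCN, SOX18, KLF2 and ABCB1 were present in the first set and near 0 in the other members, and AQP4, DKK3 and PDGFRA were higher in the other members.

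The count limit of the rule cut through a continuous population. With exactly 3 UMIs of the 6 genes, 485 barcodes lay just inside, and with 2 UMIs from 2 genes 645 lay just outside. Those just inside had 0 UMIs of ERG, EMCN and TIE1. Their CLU level was 1849 to 8835 CPM, beside 2624 to 8172 CPM just outside. The glial limit acted unequally on the libraries. Of the 5509 barcodes past the vessel gene limit with no C1Q UMI, 3098 failed it, and the share that stayed below it was 12.5% in the LG5 control and 78.3% over the graft, 19.6% and 30.5% in RC726, and 72.4% and 53.1% in RC724. The C1Q limit removed 53 barcodes.

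The share of barcodes that were members did not move one way. It was 0.715% in the LG5 control (95% exact binomial interval 0.597 to 0.849) and 2.21% over the graft (2.03 to 2.40), 1.27% (1.06 to 1.51) and 2.77% (2.48 to 3.09) in RC726, and 8.31% (7.74 to 8.90) and 5.91% (5.45 to 6.40) in RC724. The intervals cover counting error only. The log2 ratios were 1.63, 1.12 and -0.49, with a mean of 0.75 ± 1.11 (SD, n = 3) and p = 0.5 in a two-sided exact sign-flip test, whose smallest possible p is 0.25. After thinning to 1000 UMIs per barcode, which left 24 and 54, 22 and 57, and 40 and 51 members (control and over the graft, in LG5, RC726 and RC724), the log2 ratios were 0.88, 1.16 and 0.19. The vessel-marker-positive barcodes made up 0.0886%, 0.0790% and 0.342% of the control barcodes of LG5, RC726 and RC724 and 0.138%, 0.233% and 0.401% of those over the graft. Their share was higher over the graft in each experiment, by a mean log2 of 0.81 ± 0.68 (SD, n = 3).

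Within the vessel-marker-positive barcodes, the rule genes CLDN5, CDH5, FLT1 and KDR differed in direction between experiments, and VWF and PECAM1 were lower over the graft in each. CLDN5 stood at 2661, 3813 and 2545 CPM in the controls of LG5, RC726 and RC724 and at 3278, 2860 and 2784 CPM over the graft, so the groups overlapped. VWF stood at 1304, 1737 and 1861 CPM in the controls and 1212, 1597 and 1780 CPM over the graft. PECAM1 stood at 564, 651 and 503 CPM against 373, 644 and 495 CPM. CDH5 measured 79.3, 139 and 80.0 CPM against 50.3, 96.2 and 85.8 CPM. FLT1, the decoy-like receptor for VEGF, varied most between experiments, at 740.2, 4882 and 2172 CPM in the controls and 339.6, 2794 and 2504 CPM over the graft. KDR, the main signalling receptor for VEGF, stood at 61.7, 191 and 213 CPM against 88.0, 161 and 166 CPM.

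Beyond the rule, IGFBP7, a secreted protein of the vessel basement membrane, led the 20 genes most enriched in the members over all other barcodes. The list continued with the immediate early gene APOLD1, KLF2, RAMP2 (the adrenomedullin coreceptor), TM4SF1, FGL2, RGS5, the laminin receptor subunit ITGA6 and PTPRB, the phosphatase that restrains the Tie2 receptor. It also held APOA1, SOX18, MDK, ITGA1, SVIL, ADGRF5, DUSP6, MGLL, PALM2AKAP2, C17H1orf54 and PTGDS. RAMP2 stood at 1422 to 2710 CPM in the 153 and 9.4 to 23.5 CPM in the other members. The barrier genes ABCB1, a drug efflux pump, and SLC2A1, the glucose carrier, stood at 222 to 599 CPM and 1056 to 2250 CPM in the 153, against 0 to 3.5 CPM and 155 to 339 CPM in the other members. PLVAP, which marks leaky fenestrated endothelium, was near absent at 0 to 8.8 CPM (8 UMIs in all).

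Markers of other cells were present in the 153 to a measured degree. RGS5, a pericyte gene, stood at 365 to 1348 CPM, and the 10 genes of the pericyte and smooth muscle list, all detected, summed to 408 to 2185 CPM in the controls and 1643 to 2220 CPM over the graft. At least 1 UMI of PDGFRB, RGS5, KCNJ8 or ABCC9, which belong to that list, was found in 112 of the 153. The 6 rod genes summed to 121 to 573 CPM in the controls and 72.3 to 126 CPM over the graft, and the 6 Müller genes to 2597 to 4093 CPM and 2385 to 2549 CPM. Of the 7 microglial genes, 5 were at 0 (the 3 C1Q genes by the rule, and CX3CR1 and P2RY12). Of 5 lymphatic genes, 4 were detected and summed to 17.4 to 50.3 CPM. The fifth, the chemokine CCL21, was at 0 here and in all other barcodes. Of 5 lymphocyte genes, CD3D, NKG7 and CCL5 were at 0, and CD3E and CD2 summed to 0 to 4.2 CPM. Doublets were not called.

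The first question was which genes differed over the graft in the UMIs summed over all members. Of 14017 genes tested by edgeR's quasi-likelihood test with the experiment as a block, 16 (0.114%) passed an adjusted p of 0.05, 8 higher (0.0571%) and 8 lower (0.0571%). The rises included a trap for chemokines on venous endothelium (ACKR1), the monocyte chemokine CCL2 and the glial filament gene GFAP. The falls included the cone arrestin ARR3 and the photoreceptor calcium sensor GUCA1A. At an unadjusted p of 0.05, 1484 genes passed.

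Among the rises, ACKR1 was the one almost confined to the vessel-marker-positive barcodes, which held 97.8% of its UMIs. In all members it stood at 34.4, 19.5 and 21.0 CPM in the controls of LG5, RC726 and RC724 and 84.5, 101 and 64.2 CPM over the graft, without overlap. It rose by a log2 change of 1.81 (SE 0.24, edgeR adjusted p = 0.0193). CCL2 stood at 3.0, 13.2 and 11.7 CPM against 26.2, 43.2 and 58.0 CPM and rose by 2.20 (SE 0.28, edgeR adjusted p = 0.0155), with 60.7% of its UMIs in the 153. IGFBP6, an insulin-like growth factor binding protein, and S100A11, a calcium-binding protein, rose by log2 1.49 (SE 0.21) and 1.47 (SE 0.22), with 48.7% and 48.5% of UMIs in the 153. The share of all member UMIs that came from the 153 also differed between punches: it was 17.0% in the LG5 control and 9.34% over the graft, 8.96% and 21.2% in RC726, and 4.64% and 10.3% in RC724. Its part in these rises was not tested. Limiting the members to those with less than 0.5% of UMIs from rod genes ended the ACKR1 call (1.61, edgeR adjusted p = 0.118), and the CCL2 call held (2.07, edgeR adjusted p = 0.0438). Leaving out barcodes with a UMI of PDGFRB, RGS5, KCNJ8 or ABCC9, or with over 20% mitochondrial UMIs, kept only 41 of the 153. This limit ended the CCL2 call (2.10, edgeR adjusted p = 0.0906) and left ACKR1 below the filter on low counts. Both limits ended the IGFBP6 and S100A11 calls.

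The remaining calls rested on the other members, since at most 2.2% of the UMIs of each lay in the 153. VMO1 stood at 24.0, 17.9 and 4.37 CPM in the controls and 746, 110.0 and 63.7 CPM over the graft, a rise of log2 3.88 (SE 0.38, edgeR adjusted p = 0.00275). GFAP, an intermediate filament of astrocytes and reactive Müller glia, stood at 68.9, 15.6 and 55.8 CPM against 269, 101 and 144 CPM, a rise of 1.98 (SE 0.28, edgeR adjusted p = 0.0242). DBX2, a homeobox gene, rose by 2.61 (SE 0.37). The 3 genes of the astrocyte list, GFAP among them, summed to 18.7 to 77.9 CPM in control members and 112 to 273 CPM over the graft.

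The falls were genes of neurons, photoreceptors and glia. ALDH1A1, which makes retinoic acid, fell by 5.66 on the log2 scale (SE 0.55, edgeR adjusted p = 0.00275), from 34.4, 37.3 and 124 CPM to 3.52, 0.506 and 1.32 CPM. ARR3 fell by 2.52 (SE 0.24), from 190, 99.6 and 25.5 CPM to 18.0, 18.4 and 6.09 CPM. GUCA1A fell by 1.95 (SE 0.26) and the neuronal calcium buffer CALB2 by 3.31 (SE 0.46). CSMD3 and KCNAB1 (a potassium channel subunit) fell by 1.93 and 1.67. TNR, a neural matrix protein, fell by 4.31 (SE 0.48) but moved the other way in LG5, where it had 0 CPM in the control and 0.783 CPM over the graft. Cone and rod genes moved with these calls: in all members the 5 cone genes summed to 116 to 1240 CPM in the controls and 76.0 to 221 CPM over the graft, and the 6 rod genes to 248 to 4170 CPM and 245 to 1202 CPM. Limiting the members to barcodes with less than 0.5% of UMIs from rod genes left 7 calls (2 higher, 5 lower).

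**Figure D3:**
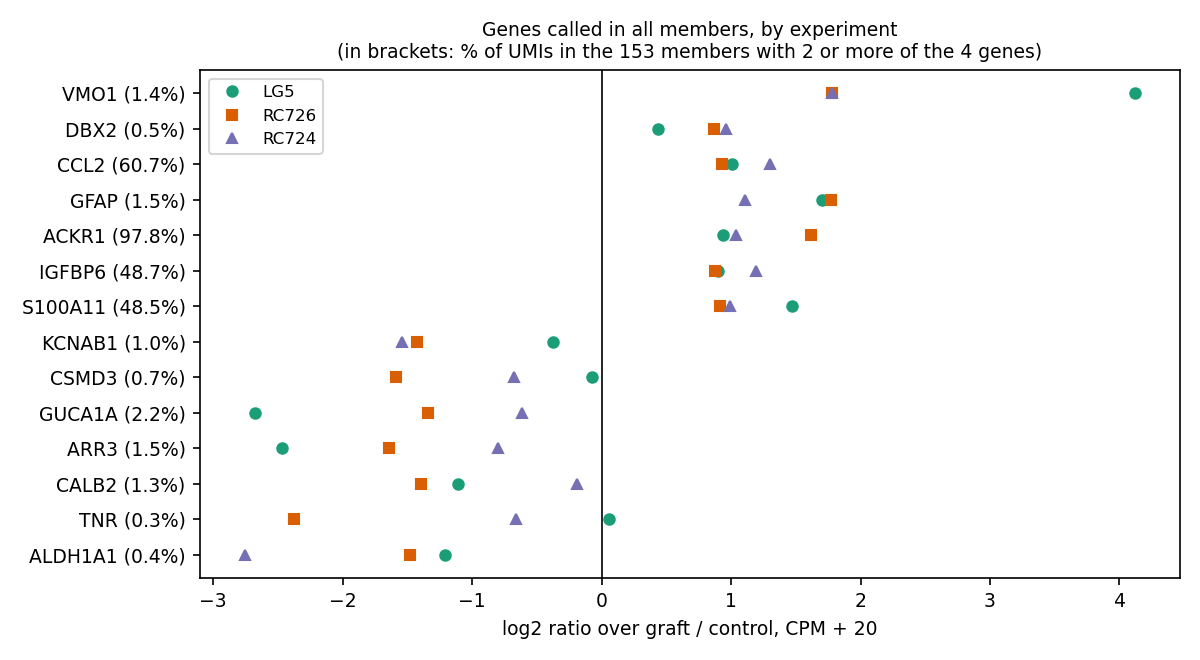
Log2 ratio over graft to control (CPM + 20) of 14 genes called in all members, 1 point per experiment, with the percentage of each gene's UMIs that lay in the 153 vessel-marker-positive barcodes in brackets. ACKR1 is the one call with nearly all of its UMIs (97.8%) in that subset, and TNR is the one whose experiments differ in sign.

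By gene group, the tested calls in all members were few. One of 6 venous genes (ACKR1) and 1 of 6 chemokines and cytokines (CCL2) rose. Of the 3 VEGF receptor and coreceptor genes outside the rule, 4 angiopoietin and Tie genes, 14 Norrin and Wnt genes, 8 Notch genes, 20 endothelial transcription factors, 12 junction genes and 21 barrier transporters, 0 passed. The background was the 0.114% of all tested genes given above.

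A stricter rule, at least 5 UMIs from at least 3 of the 6 genes, enriched for the vessel-marker-positive barcodes and allowed a test. It kept 318 barcodes (LG5 16 and 33, RC726 11 and 53, RC724 105 and 100, control and over the graft), of which 145 were among the 153. The 153 supplied 100%, 69.9% and 27.4% of its UMIs in the controls of LG5, RC726 and RC724 and 93.0%, 70.3% and 43.1% over the graft. Of 9517 genes tested, 51 (0.536%) passed, 37 higher (0.389%) and 14 lower (0.147%). Genes by which venous endothelium captures leukocytes were among the rises. The endothelial selectin SELE, which tethers leukocytes, rose by log2 2.29 (SE 0.36, edgeR adjusted p = 0.00103). CCL2 rose by 2.47 (SE 0.39) with the same adjusted p in edgeR, and the cytokine IL6 by 1.92 (SE 0.37, edgeR adjusted p = 0.0110). In all members SELE and IL6 had not passed (edgeR adjusted p = 0.0698 and 0.100). ACKR1 rose by 1.51 (SE 0.29, edgeR adjusted p = 0.0114).

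Matrix, lipid and growth factor binding genes also rose in that set. Fibronectin (FN1) rose by 1.34 (SE 0.28, edgeR adjusted p = 0.0197), as 1 of 19 basement membrane genes. Lipoprotein lipase (LPL), an enzyme held on the capillary surface, rose by 1.96 (SE 0.36, edgeR adjusted p = 0.00803), as 1 of 8 capillary and lipid genes. IGFBP4 and IGFBP5 rose by 1.46 (SE 0.29) and 2.24 (SE 0.51). However, IGFBP5 moved the other way in LG5, from 115 CPM in the control to 99.3 CPM over the graft. The metalloprotease gene ADAMTS4 rose by 1.84 (SE 0.34), the alarmin IL33 by 2.32 (SE 0.49) and the metalloprotease inhibitor TIMP1 by 2.07 (SE 0.43). The pericyte gene ABCC9 rose as well, by 1.59 (SE 0.36, edgeR adjusted p = 0.0402). FGG, a fibrinogen chain, fell by 2.15 (SE 0.31, edgeR adjusted p = 0.000801).

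By group, 2 of 6 venous genes, 2 of 5 chemokines and cytokines and 1 of 7 leukocyte adhesion genes rose under the stricter rule. Of 22 endothelial transcription factors, 10 junction genes, 20 barrier transporters, 13 Norrin and Wnt genes, 7 Notch genes, 31 interferon response genes and 15 MHC class I genes, 0 passed. Their median log2 changes ran from -0.27 for junctions to 0.08 for transcription factors, beside a median of 0.02 over all 9517 genes.

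Values within the 153 were also examined, without a test. The 153's share of the stricter set's UMIs differed between punches, as given above, and its part in the rises of that set was not tested. Of 8442 genes with at least 50 UMIs in this subset, 7 (0.0829%) were at least 2-fold higher over the graft in every experiment: CCL2, IL6, SELE, PCLAF, TRPM1, HPD and RRAD. Another 2 (0.0237%) were at least 2-fold lower, ADIRF and LOC100686073. In smaller steps, 1296 (15.4%) were higher and 1140 (13.5%) lower in every experiment, and 375 (4.44%) were higher and 307 (3.64%) lower with no overlap between the groups. Ratios use CPM + 20, which understates low genes. ADIRF, a gene linked to fat cell differentiation, stood at 2088 and 734 CPM, 1885 and 867 CPM, and 1784 and 863 CPM (control and over the graft, in LG5, RC726 and RC724). In TRPM1, an ion channel of bipolar cells, 1 barcode held up to 97.7% of a library's UMIs, and without each library's top barcode its mean log2 ratio was 0.27. Without these barcodes IL6, SELE, RRAD and ADIRF stayed at least 2-fold apart in every experiment, and CCL2, PCLAF and HPD did not.

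SELE stood at 150 CPM in the LG5 control and 339.6 CPM over the graft, 69.5 and 200.3 CPM in RC726, and 103 and 685 CPM in RC724. The mean log2 ratio was 1.63 ± 0.77 (SD, n = 3), and the lowest punch over the graft lay above the highest control. Few barcodes carried SELE in the controls, and without each library's top barcode the mean was 2.83. CCL2 stood at 17.6 and 130.0 CPM, 0 and 163 CPM, and 98.0 and 351 CPM, a mean of 2.28 ± 0.81 without overlap. However, 1 barcode held 77.4% of the CCL2 UMIs of LG5 over the graft. Without each library's top barcode, CCL2 in LG5 over the graft was 31.3 CPM, below the 36.5 CPM of the RC724 control, so the groups overlapped, and the log2 ratios were 0.79, 2.45 and 2.41. IL6 stood at 79.3 and 335 CPM, 0 and 61.2 CPM, and 33.5 and 133 CPM, a mean of 1.79 ± 0.25, but its groups overlapped. The RC726 control held only 8 of these barcodes, and a count of 0 there allows up to 26.1 CPM. VCAM1, the adhesion ligand for leukocyte integrins, stood at 17.6 and 75.5 CPM, 0 and 32.6 CPM, and 45.1 and 72.9 CPM, a mean of 1.08 ± 0.50 with overlapping groups. ICAM1 differed in sign between experiments, at 123 and 25.2 CPM in LG5, 0 and 83.4 CPM in RC726, and 67.1 and 152 CPM in RC724. SELP, the platelet and endothelial selectin, was sparse, with 49 UMIs in all.

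ACKR1 stood at 194 and 901 CPM, 174 and 469.7 CPM, and 427 and 616 CPM, a mean of 1.32 ± 0.80 without overlap. In the controls 1 barcode held 100% of the ACKR1 UMIs in RC726 and 79.8% in RC724, and without each library's top barcode the log2 ratios were 2.0, 4.32 and 1.78. Of the 153, 72 carried at least 1 UMI of ACKR1: 6 of 16 in the LG5 control and 18 of 33 over the graft, 1 of 8 and 16 of 27 in RC726, and 9 of 30 and 22 of 39 in RC724. These 72 held 49.4%, 29.1% and 51.8% of the subset's UMIs in the controls of LG5, RC726 and RC724 and 68.8%, 74.7% and 69.0% over the graft, so the makeup of the subset differed between punches as well. Nearly all SELE lay in them: 100% of its UMIs in both LG5 punches, 0% and 93.3% in RC726, and 100% and 99.2% in RC724. Counted within the ACKR1-positive barcodes alone, CCL2 stood at 0 and 152 CPM in LG5, 0 and 215 CPM in RC726, and 137 and 451 CPM in RC724. IL6 there stood at 89.2 and 463 CPM, 0 and 75.6 CPM, and 62.3 and 177 CPM. ACKR1 itself differed over the graft, and the control arm was 1 barcode in RC726 and 6 in LG5, so these values do not separate the makeup of the subset from the level per barcode. A barcode of low depth can lack an ACKR1 UMI by chance of capture, and the median depth of the 153 was 7168.5 UMIs in the LG5 control, 7151 over the graft, 10694 and 29681 in RC726, and 16845.5 and 27547 in RC724.

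**Figure D4:**
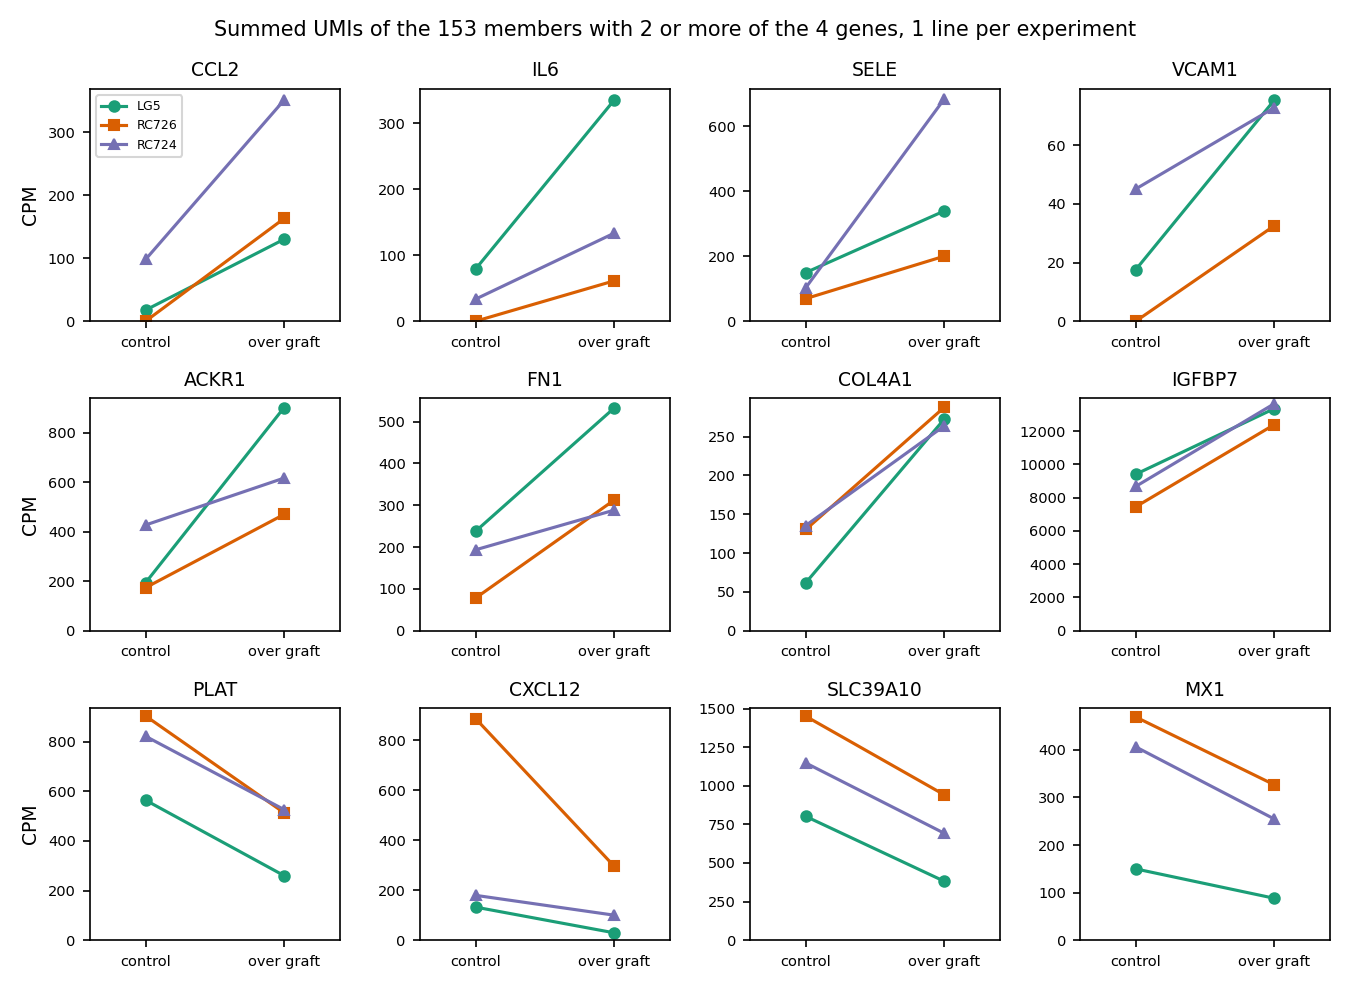
Summed UMIs (CPM) of single genes in the 153 vessel-marker-positive barcodes, with 1 line per experiment from the control punch to the punch over the graft. SELE, CCL2, IL6 and ACKR1 were higher over the graft in every experiment, and PLAT, CXCL12, SLC39A10 and MX1 were lower in every experiment.

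PLAT, the tissue plasminogen activator that starts the dissolution of fibrin clots, stood at 564 and 259.9 CPM, 903 and 513 CPM, and 822 and 526 CPM, a mean log2 ratio of -0.83 ± 0.22 without overlap. It was not called under the stricter rule.

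Basement membrane genes were higher in 6 of 19 measured members in every experiment and lower in 4, beside 15.4% and 13.5% of all 8442 genes. COL4A1, the main collagen chain of that layer, stood at 61.7 and 273 CPM, 130.3 and 288 CPM, and 135 and 264 CPM, a mean of 1.25 ± 0.52 without overlap. Its partner chain COL4A2 had a mean of 0.66, and LAMC1, NID1 and FN1 were the others with IGFBP7. IGFBP7 stood at 9411 and 13357 CPM, 7453 and 12394 CPM, and 8678 and 13653 CPM, a mean of 0.63 ± 0.12. COL4A1 was not called in all members (log2 1.32, SE 0.30, edgeR adjusted p = 0.120).

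No barrier gene was called over the graft in all members or under the stricter rule. The comparison with rods, given below, did call barrier transporters, 1 upward and 1 downward of 21. In the sums of the 153, of 20 barrier transporter and transcytosis genes, 0 were higher and 5 lower in every experiment: ABCB1, ABCG2, SLC38A5, SLC39A10 and CAVIN2, with a list median of -0.31 beside 0.02 for all genes. ABCG2, an efflux pump, stood at 326 and 189 CPM, 756 and 367 CPM, and 419 and 378 CPM. SLC39A10, a zinc importer, stood at 802 and 382 CPM, 1451 and 942 CPM, and 1148 and 693 CPM, a mean of -0.79 ± 0.22. MFSD2A, the lipid carrier that suppresses transcytosis, stood at 61.7 and 29.4 CPM, 139 and 82.7 CPM, and 64.5 and 81.9 CPM, so it differed in sign. Of 9 junction genes, 4 were lower, OCLN, TJP1 and CTNND1 among them, and LSR was higher in every experiment. For both lists the background was 15.4% of all 8442 genes higher and 13.5% lower in every experiment.

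Signalling genes showed no common direction. Of the 22 endothelial transcription factors, 4 were higher (ETS1, SOX7, MEF2C, BCL6B) and 7 lower (SOX17, TAL1, LYL1, GATA2, KLF4, FOXQ1, EPAS1) in every experiment, with a median of -0.11. Among all 8442 genes these shares were 15.4% and 13.5%. None of 11 Norrin and Wnt genes and none of 7 Notch genes had 1 direction in every experiment. FZD4, the Norrin receptor, stood at 70.5 and 58.7 CPM, 60.8 and 68.4 CPM, and 40.0 and 52.9 CPM. ANGPT2, the Tie2 antagonist released from activated endothelium, stood at 44.1 and 29.4 CPM, 0 and 94.6 CPM, and 40.0 and 29.0 CPM. TIE1 and PTPRB were the 2 of 4 angiopoietin and Tie genes that were lower in every experiment. CXCL12, a chemokine that holds CXCR4-bearing cells, stood at 132 and 29.4 CPM, 886 and 296 CPM, and 179 and 99.9 CPM, a mean of -1.29 ± 0.49.

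Genes of the type I interferon response list changed differently over the graft in the members and in the rods of the same libraries. In a fit of class by group over 19478 genes, 133 (0.683%) changed more upward and 244 (1.25%) more downward in the members than in the rods. Of 42 genes of the type I interferon response, 28 were among the latter and 0 among the former, with a median difference of -2.07 beside 0.05 for all genes. Of 17 MHC class I genes, 13 were among the latter, with a median of -1.61. The members' own change was not called for any of 39 interferon genes (median log2 0.52).

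MX1, an interferon-induced GTPase that blocks viruses, shows the contrast. In rods it stood at 5.2, 2.1 and 0.9 CPM in the controls and 211, 48.3 and 60.7 CPM over the graft. In the other members it stood at 7.2, 42.7 and 16.4 CPM against 88.9, 48.0 and 23.2 CPM. In the 153 it stood at 150, 469 and 406 CPM in the controls and 88.0, 327 and 255 CPM over the graft, a mean log2 ratio of -0.59 ± 0.09 with a lower value in each experiment. In the RC726 control 1 barcode held 48.1% of the MX1 UMIs, and without each library's top barcode the log2 ratios were -0.49, -0.06 and -0.43. Its control level in the 153 was thus above its level over the graft in rods in RC726 and RC724. The difference of changes, members minus rods, was -4.31 (SE 0.28, edgeR adjusted p = 3.6e-50). Because edgeR shares variance across genes, a p this small does not measure the spread between the experiments alone. The MHC class I light chain B2M differed by -1.91 (SE 0.24), while ISG15, PSMB8, TAP1 and IRF1 differed by -3.38, -3.16, -2.62 and -2.53.

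In the 153, 1 of 33 interferon genes (IFIT5) was higher in every experiment and 12 were lower, with medians of -0.05, -0.35 and -0.21 in LG5, RC726 and RC724. The medians were 0.47, 0.27 and 0.05 in the other members and 1.64, 0.64 and 1.13 in rods. IFNAR1, a subunit of the type I interferon receptor, stood in the 153 at 1198 and 637 CPM, 2615 and 1532 CPM, and 1637 and 1217 CPM. Of 15 MHC class I genes, 2 were higher and 3 lower in every experiment. The background for both lists was 15.4% of all 8442 genes higher and 13.5% lower. No interferon or MHC class I gene was called under the stricter rule, and the lower values in the 153 were not tested.

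**Figure D5:**
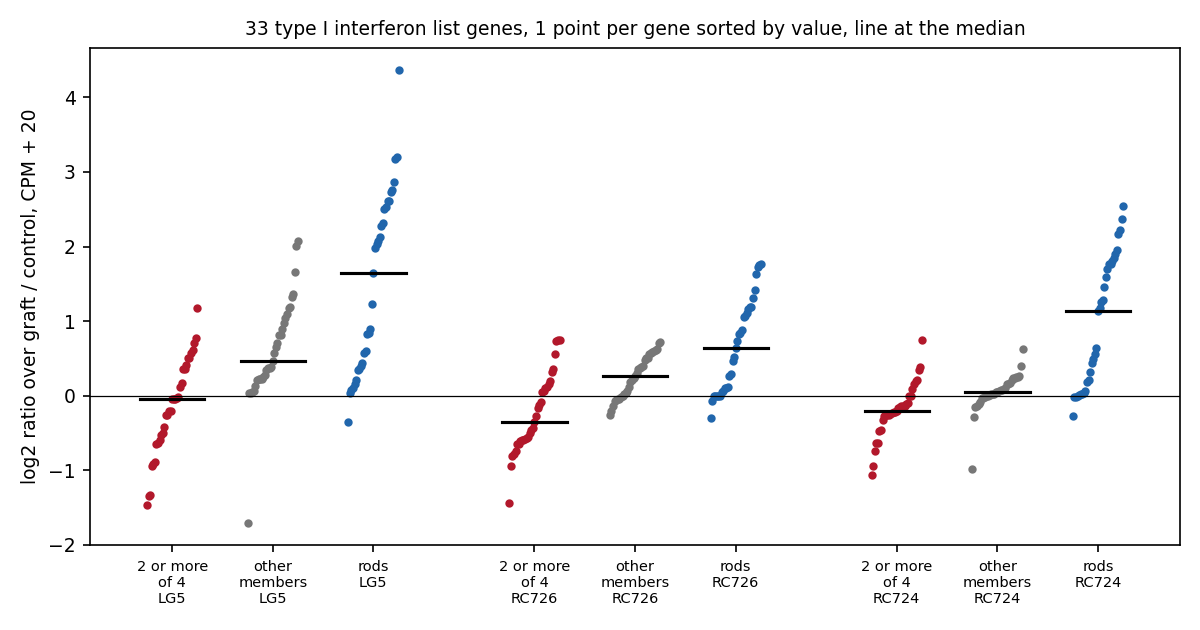
Log2 ratio over graft to control (CPM + 20) of 33 type I interferon genes by experiment in the 153 vessel-marker-positive barcodes, the other members and rods, with 1 point per gene sorted by value and a line at the median. The medians of the 153 lie between -0.35 and -0.05 and those of rods between 0.64 and 1.64.

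Against the rods, 2 of 8 venous genes, 1 of 10 leukocyte adhesion genes and 1 of 9 chemokines and cytokines differed upward. SELE was not among them (1.04, SE 0.96, edgeR adjusted p = 0.963). ACKR1 changed by 1.91 more in the members (SE 0.33, edgeR adjusted p = 1.1e-06), IL6 by 2.06 (SE 0.57, edgeR adjusted p = 0.0188), VCAM1 by 1.25 (SE 0.36, edgeR adjusted p = 0.0334) and the transcription factor subunit NFKB1 by 1.30 (SE 0.28). The 153 held 57.3% of the members' IL6 UMIs and 20.6% of their VCAM1 UMIs, so the members' side of the VCAM1 difference rests mostly on the other members. The limit on pericyte and mitochondrial UMIs given above kept only 41 of the 153. Under it, ACKR1 (1.14, edgeR adjusted p = 0.805), IL6 (2.28, edgeR adjusted p = 0.207) and VCAM1 (1.24, edgeR adjusted p = 0.0671) no longer passed. Without RC724 the calls of IL6 (0.88), VCAM1 (0.34) and NFKB1 (1.04) were lost too, as were those of VCAM1 and NFKB1 under the stricter rule (edgeR adjusted p = 0.165 and 0.122). Rods carried few UMIs of IL6 and VCAM1. For RC724, rod IL6 fell from 25 UMIs (control, 76% from 1 barcode) to 5 over the graft. Rod VCAM1 there fell from 164 UMIs (30.5% from 1 barcode) to 91. LG5 rods rose, from 18 to 51 UMIs for IL6 and 97 to 235 for VCAM1. RC726 rods changed little, with 3 IL6 UMIs per punch, and VCAM1 at 57 then 54. How far the rod values set these calls was not tested. CCL2 did not pass in the comparison of all members with rods, with a difference of -1.23 (SE 0.82). Of 21 barrier transporters, 1 differed upward and 1 downward. The latter, ABCB1, changed by -1.91 relative to rods (SE 0.31, edgeR adjusted p = 3.3e-07). A like comparison with Müller glia could not be fitted, since 174 barcodes in all met the Müller rule and 2 to 7 in the RC726 and RC724 libraries.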

How the data were processed

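Per the file headers, the authors deposited raw UMI counts by gene and barcode, from Cell Ranger 6.0.2 (both LG5 libraries), 7.0.0 (RC726 control) and 7.1.0 (the other 3). The sources used here give no genome build and do not say how intron reads were handled. Of 34981 gene names, 33363 match a RefSeq symbol of UU_Cfam_GSD_1.0. The members, gene lists and tests were chosen with earlier results of these data known. The labels do not say whether the experiments came from different animals, so p-values refer to these samples only. edgeR also shares variance across genes, with 9.15 prior degrees of freedom in the fit of all members. The p-values therefore do not measure the spread between the experiments alone. Doublets were not called.

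UMIs of members were summed per library and tested with edgeR 4.0.16 in R 4.3.3 (filterByExpr, TMM, quasi-likelihood, experiment as a block, Benjamini-Hochberg over all genes tested). The block comes from the shared retina of both punches, and deviations from the group means correlated at 0.822, 0.671 and 0.747 within LG5, RC726 and RC724. SE is the size of the change divided by the square root of F. The text names called genes with 1 direction and at least 50 UMIs (at most 10 each way; TNR, called without 1 direction, is added), up to 4 called genes of each list, and 20 enriched genes. Genes singled out within the 153 and under the stricter rule outside the lists were chosen after their values were seen. A few genes that met these rules are not reported here. Sums of the 153 were also computed without the barcode that held most UMIs of a gene in each library, a check added after the data were seen. In Python 3.11.15, scipy 1.17.1, pandas 2.3.3, numpy 2.4.6 and matplotlib 3.10.9 gave shares, exact Clopper-Pearson intervals and figures, and DESeq2 1.42.0 served as an alternative. On simulated counts for all members (13918 genes), 42% of genes changed by log2 1 and 88% of those changed by log2 2 were recovered, with 4 false calls. For the comparison with rods (19465 genes) these were 1%, 64% and 3. The simulation gave every gene the same dispersion, and unchanged genes had 1 mean for both punches of an experiment. Differences in makeup between punches were therefore not simulated, and recovery in the real data can differ.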

Additional observations from a re-analysis of the deposited data

Results flagged for a closer look

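Against the rods of the same libraries, 377 genes changed differently in the members by edgeR's interaction test, among them 28 genes of the type I interferon response and 13 of MHC class I. Of all member UMIs, 9.58% came from the 153 vessel-marker-positive barcodes, so these counts describe mostly the other members.

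In the 153, 14 genes of the interferon and MHC class I lists were lower over the graft in every experiment while they were higher in every experiment in rods. Irrespective of rods, 12 of 33 interferon genes and 3 of 15 MHC class I genes were lower, beside 13.5% of all 8442 genes. In the other direction, 1 interferon gene and 2 MHC class I genes were higher in every experiment. Of the 14 genes, 13 are given here, and their opposite directions were not tested. The mean log2 ratios (CPM + 20) were -0.59 for MX1 (2.26 in rods), -0.44 for IFIH1 (1.18), -0.40 for IRF1 (1.47), -0.41 for IRF9 (1.70), -0.24 for USP18 (1.61) and -0.66 for HERC6 (2.34). They were -0.68 for DTX3L (0.38), -0.46 for EPSTI1 (0.23), -0.23 for RTP4 (0.44), -0.55 for IFGGC1 (2.07), -0.43 for DLA88 (0.50), -0.19 for PSMB8 (1.88) and -0.46 for PSME1 (0.73).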

How the results depend on the processing

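The pairing decided the calls in all members: without the replicate block edgeR called 0 of 14017 genes (192 at an unadjusted p of 0.05), and each of the 16 was lost. Other settings moved that count to 51 under the stricter rule, 47 (17 higher, 30 lower) with at most 20% mitochondrial UMIs and no pericyte UMI, 96 (31 and 65 of 11569) with DESeq2, 577 (295 and 282 of 27441) with no filter on low counts, 7 with the limit on rod markers, and 71 to 367 with 1 experiment left out: 367 without LG5 (207 and 160), 113 without RC726 (74 and 39) and 71 without RC724 (20 and 51). DESeq2 size factors in edgeR gave 18. The count against rods ranged from 262 to 430, and the mean log2 ratio of shares from 0.32 to 1.37, always above 0. In the 153, the count of genes at least 2-fold apart in every experiment (9) became 45 with a pseudocount of 5 CPM, 4 with 50 CPM and 29 to 61 with 1 experiment left out (36 without LG5, 29 without RC726, 61 without RC724). The 12 lower interferon genes became 13 to 18. Leaving out 1 experiment can only keep or raise such counts in the 153, so those settings do not test them. No result listed reversed, but a gene with 1 direction in every experiment cannot reverse when 1 experiment is left out. The comparison with Müller glia and its alternatives were not run, for want of barcodes. The 8 to 39 vessel-marker-positive barcodes per library limit every value given for them.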
